A study of Mus musculus with 12 samples.

Results

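The small leucine-rich proteoglycans are a family of secreted matrix proteins, and 10 of their genes were followed here by symbol: Dcn, Lum, Bgn, Fmod, Ogn, Prelp, Aspn, Ecm2, Omd and Podn. All 10 were among the 24011 genes measured on the arrays, each through 1 row of the table. The cells were mouse liver sinusoidal endothelial cells (LSECs), the sieve-like endothelium that lines the sinusoids of the liver, taken with magnetic beads against CD146. The 12 arrays form 4 genotypes with 3 arrays each: DKO, which lacks both Stab1 and Stab2, Stab1KO, Stab2KO and wild type (WT). RNA of 3 mice was pooled for each array, the animals were 3 to 4 months old, and the labels give C57BL/6J as the strain of every group. The stabilins, encoded by these genes, are scavenger receptors of this endothelium. The labels do not say how the alleles were made or whether knockout and WT mice were littermates, so a difference between colonies and a difference of genotype cannot be told apart against WT.

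A small leucine-rich proteoglycan is a curved protein built of leucine-rich repeats, which binds collagen and other ligands, and many members carry chondroitin, dermatan or keratan sulfate chains. Members space and organise collagen fibrils, and some bind transforming growth factor beta or signal through receptors at the cell surface. In liver they are known mainly as products of stellate cells, which wrap the sinusoid and store retinoids, and of portal fibroblasts, and their deposition is studied in fibrosis. The family is divided into classes. Among the genes here, Dcn, Bgn, Aspn and Ecm2 belong to class I, Lum, Fmod, Prelp and Omd to class II, Ogn to class III and Podn to class V.

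The values are log2 expression values made by the submitters with RMA, so levels are compared between arrays for 1 gene and not between genes. The median of all genes on an array was 5.11 log2. The targeted genes followed the labels. Stab1 lay between 4.98 and 5.45 in the DKO and Stab1KO arrays and between 12.46 and 12.62 in the Stab2KO and WT arrays, and Stab2 between 5.46 and 7.60 in the DKO and Stab2KO arrays and between 12.99 and 13.09 in the Stab1KO and WT arrays. The endothelial genes Cdh5 and Pecam1 lay at 12.24 or above in every array, as did the LSEC gene Lyve1 at 12.39 or above. DKO replicate 3 stood apart: its mean over 10 neutrophil genes was 11 log2, against 5.52 and 5.83 in the other DKO arrays and 4.81 to 5.72 in the other genotypes. Members called in a comparison with DKO are given with and without that array. For the other gene lists, calls of DKO against WT that were lost or gained without it are named or counted.

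Dcn and Lum were called lower than WT in every knockout genotype, and the other 8 members were not called lower in any. Dcn encodes decorin, a collagen- and growth factor-binding proteoglycan with a chondroitin or dermatan sulfate chain. Lum encodes lumican, a keratan sulfate proteoglycan that regulates the spacing of collagen fibrils. The only other member called against WT was Ecm2, which rose in Stab2KO. By limma with Benjamini-Hochberg adjustment over all genes, 2 of 10 members were called lower at an adjusted p under 0.05 in DKO against WT, where 1.05% of all genes were called lower and 1.8% in either direction. In Stab1KO 2 of 10 were lower, beside 0.279% of all genes lower and 0.308% in either direction. In Stab2KO 2 of 10 were lower, beside 0.212% of all genes, and 1 of 10 was higher, beside 0.0833%, with 0.296% of all genes called in either direction. Genes lower in all 3 knockouts made up 0.15% of all genes, and Dcn and Lum were among them. The median log2 difference of the 10 members was 0.03 in DKO, -0.07 in Stab1KO and 0.09 in Stab2KO, beside medians of -0.02, 0.01 and 0.01 over all genes, so the list as a whole lay near the middle of all genes. By position of the arrays alone, 4 members had every DKO array below every WT array and 3 had every DKO array above, where 15% and 8.97% of all genes did. In Stab1KO 2 lay below and 1 above, beside 4.72% and 5.36% of all genes, and in Stab2KO 3 lay below and 3 above, beside 7.63% and 8.09%.

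**Figure D1:**
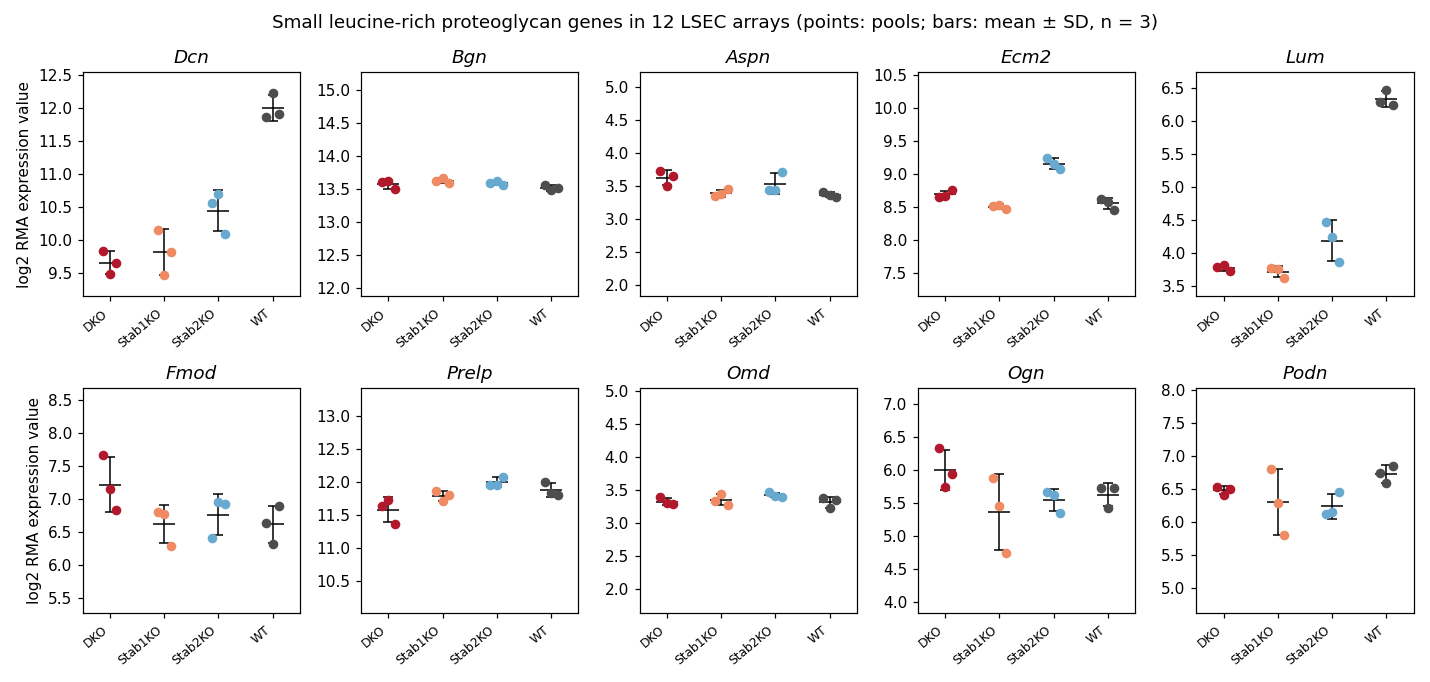
Log2 expression values of the 10 small leucine-rich proteoglycan genes (vertical axes, each spanning its own range) in the 4 genotypes (horizontal axes), with 1 point per pool and the mean ± SD of 3 pools. The 3 WT points lie above all 9 knockout points for Dcn and Lum, and the 3 Stab2KO points lie above the other 9 for Ecm2.

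Dcn measured 9.84, 9.48 and 9.66 log2 in the DKO arrays, 10.16, 9.47 and 9.82 in the Stab1KO arrays and 10.56, 10.70 and 10.10 in the Stab2KO arrays, against 11.87, 12.23 and 11.92 in the WT arrays. Every knockout array was below every WT array. Dcn fell by 2.35 ± 0.20 log2 (SE) in DKO, which is 5.08-fold lower (limma adjusted p = 0.00021). It fell by 2.19 ± 0.20 in Stab1KO (4.56-fold lower, adjusted p = 0.00065) and by 1.56 ± 0.20 in Stab2KO (2.94-fold lower, adjusted p = 0.0095). The 3 comparisons share the WT arrays, in which replicate 2 was the highest for Dcn. Without that array the difference was -2.23 in DKO, -2.08 in Stab1KO and -1.45 in Stab2KO (adjusted p = 0.048), all past the threshold. Without DKO replicate 3 it was -2.35 in DKO (adjusted p = 0.0010).

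Lum measured 3.79, 3.81 and 3.72 log2 in the DKO arrays, 3.78, 3.75 and 3.62 in the Stab1KO arrays and 4.46, 4.24 and 3.86 in the Stab2KO arrays, against 6.29, 6.46 and 6.24 in the WT arrays. The 9 knockout arrays were again all below the WT arrays, and all 9 were below the array median. Lum fell by 2.55 ± 0.13 log2 (SE) in DKO (5.87-fold lower, limma adjusted p = 7.5e-06), by 2.61 ± 0.13 in Stab1KO (6.11-fold lower, adjusted p = 7.9e-06) and by 2.14 ± 0.13 in Stab2KO (4.41-fold lower, adjusted p = 0.00019). Without DKO replicate 3 the difference in DKO was -2.53. No detection calls were used here, and the DKO and Stab1KO means of Lum stood at the 21.6 and 19.6 percentiles of all genes on their arrays, against 60.6 in WT. The share of background in values this low is unknown.

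Between knockouts, no difference of Dcn or Lum passed the threshold over all 12 arrays, though some in DKO against Stab2KO passed under alternative settings. Dcn in Stab2KO lay above Dcn in DKO in all arrays, with a difference of -0.79 ± 0.20 log2 (DKO minus Stab2KO, 95% interval -1.22 to -0.35, limma adjusted p = 0.056), and it passed under 6 of 19 alternatives, with adjusted p-values between 0.021 and 0.19. Lum differed by -0.41 ± 0.13 between DKO and Stab2KO (95% interval -0.71 to -0.12, adjusted p = 0.12). It passed under 2 of 19 alternatives, with array weights (-0.47, adjusted p = 0.036) and without Stab2KO replicate 3 (-0.58, adjusted p = 0.024), and the adjusted p-values reached 0.32. DKO and Stab1KO overlapped for both genes, with differences of -0.16 (95% interval -0.59 to 0.28) for Dcn and 0.06 (-0.24 to 0.35) for Lum. If the separate losses added up on the log2 scale, DKO would lie lower still. For Lum that level would lie below 2.94 log2, the lowest value of any gene on any array. A departure above 0 was therefore fixed for Lum by the range of the arrays. The departure from additivity, taken as DKO minus Stab2KO less Stab1KO minus WT, was 2.2 ± 0.19 for Lum (adjusted p = 0.0016) and 2.23 without DKO replicate 3. Lum was the 1 member called, above 0, where 0.0333% of all genes were called above 0 and 0.05% in either direction. For Dcn it was 1.40 ± 0.28 (adjusted p = 0.10). Since Lum in DKO and Stab1KO stood near the low end of the arrays, a limit of the measurement and a limit of the fall cannot be told apart for it.

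**Figure D2:**
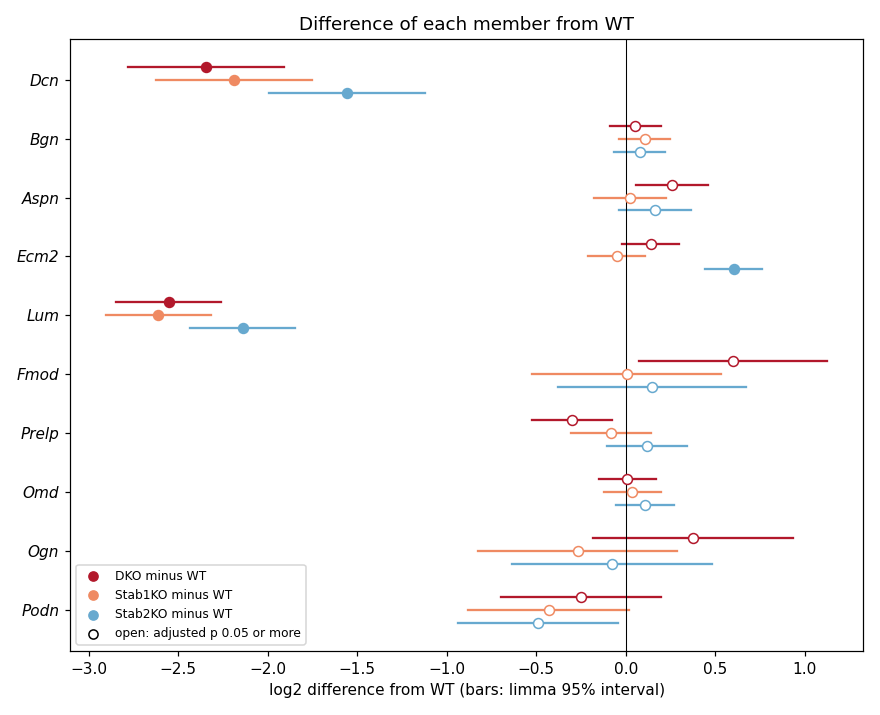
Log2 difference from WT of each member (horizontal axis) with limma's 95% interval, in DKO, Stab1KO and Stab2KO. Filled points passed an adjusted p of 0.05. Dcn and Lum lie between -2.61 and -1.56 in all 3 knockouts, Ecm2 is filled at 0.60 in Stab2KO, and every other point is open.

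Among the other class I genes, Ecm2 encodes an extracellular matrix protein that joins leucine-rich repeats to a von Willebrand factor type C domain. Ecm2 measured 9.24, 9.16 and 9.08 log2 in the Stab2KO arrays, against 8.63, 8.58 and 8.46 in the WT arrays. It measured 8.66, 8.67 and 8.75 in the DKO arrays and 8.51, 8.54 and 8.46 in the Stab1KO arrays. Ecm2 rose by 0.60 ± 0.07 log2 (SE) in Stab2KO against WT (1.52-fold, limma adjusted p = 0.0075). It was lower in DKO than in Stab2KO, with a difference of -0.46 ± 0.07 (adjusted p = 0.014) and of -0.49 without DKO replicate 3 (adjusted p = 0.016), and in Stab1KO than in Stab2KO, with a difference of -0.65 ± 0.07 (adjusted p = 0.0054). In DKO, where Stab2 is also missing, the difference from WT was 0.14 (95% interval -0.02 to 0.30, adjusted p = 0.36). The departure from additivity of Ecm2 was -0.41 ± 0.10 and did not pass (adjusted p = 0.14), so the Stab2 effects with and without Stab1 were not shown to differ. The call of DKO against Stab2KO was lost without Stab2KO replicate 1 (-0.42, adjusted p = 0.063) or Stab2KO replicate 2 (-0.46, adjusted p = 0.065), and the call against WT was lost when only the 6 arrays compared were fitted (adjusted p = 0.084).

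Ecm2, Aspn, Omd and Ogn follow each other on chromosome 13, and the RefSeq span of Cenpp, a kinetochore protein gene, holds all 4. Cenpp itself was not called against WT in any knockout, with log2 differences of 0.07 in DKO, -0.19 in Stab1KO and -0.02 in Stab2KO. Its values lay between 3.54 (Stab1KO) and 3.99 log2 (DKO), below the median of 5.11. At levels this low the lack of a call says little. In Stab2KO the 3 tandem neighbours differed from WT by 0.16 (Aspn), 0.11 (Omd) and -0.08 (Ogn), all without passing the test. The RefSeq promoters of the 4 neighbours (GRCm38.p6, from 250 bases before the start site to 50 after it) are shown because only the first of them belongs to a gene called against WT. Capitals mark matches on either strand to the TATA box TATAAA, the CCAAT box CCAAT or the GC box GGGCGG, which 13.6%, 37.4% and 35.7% of the 32851 promoters in the table hold at this length.
Ecm2 promoter, chr13:49504560-49504859, plus strand: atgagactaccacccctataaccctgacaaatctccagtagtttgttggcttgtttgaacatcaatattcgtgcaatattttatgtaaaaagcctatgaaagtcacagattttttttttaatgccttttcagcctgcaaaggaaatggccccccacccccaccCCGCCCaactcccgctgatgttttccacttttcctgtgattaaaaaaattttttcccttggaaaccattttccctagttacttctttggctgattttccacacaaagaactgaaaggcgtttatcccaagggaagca
Aspn promoter, chr13:49544193-49544492, plus strand: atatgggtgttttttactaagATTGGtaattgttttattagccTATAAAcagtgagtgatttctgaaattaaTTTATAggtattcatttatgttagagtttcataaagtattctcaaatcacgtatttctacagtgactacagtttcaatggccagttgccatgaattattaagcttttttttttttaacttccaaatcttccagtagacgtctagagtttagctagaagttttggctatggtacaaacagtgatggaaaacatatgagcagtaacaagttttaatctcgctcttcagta
Omd promoter, chr13:49582212-49582511, plus strand: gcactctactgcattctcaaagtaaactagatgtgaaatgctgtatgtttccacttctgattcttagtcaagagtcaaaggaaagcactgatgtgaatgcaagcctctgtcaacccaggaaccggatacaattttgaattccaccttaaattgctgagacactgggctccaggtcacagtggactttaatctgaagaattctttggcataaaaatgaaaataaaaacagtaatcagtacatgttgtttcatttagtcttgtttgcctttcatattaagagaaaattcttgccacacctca
Ogn promoter, chr13:49607765-49608064, plus strand: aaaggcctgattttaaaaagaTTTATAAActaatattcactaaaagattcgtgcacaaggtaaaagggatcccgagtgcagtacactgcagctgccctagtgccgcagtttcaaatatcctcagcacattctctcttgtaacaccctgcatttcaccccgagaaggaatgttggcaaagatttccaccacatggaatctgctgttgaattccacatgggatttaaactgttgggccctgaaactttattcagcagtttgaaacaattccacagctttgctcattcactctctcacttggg
Ecm2 held 1 GC box, on the opposite strand, and neither a TATA nor a CCAAT box. Aspn held TATAAA once on each strand and a CCAAT box on the opposite strand, Ogn held 2 overlapping TATAAA matches on opposite strands, and Omd held none of the 3 motifs. The G and C content was 41.0% for Ecm2, 31.0% for Aspn, 37.7% for Omd and 42.3% for Ogn, beside a median of 52.7% over the table. A match is a description of letters, not a binding site. The table held promoters of 8 of the 10 members, and Dcn and Lum are named only.

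Bgn encodes biglycan, the closest relative of decorin, which can act as a ligand of the toll-like receptors TLR2 and TLR4. Bgn measured 13.60, 13.63 and 13.50 log2 in the DKO arrays, 13.63, 13.67 and 13.59 in the Stab1KO arrays and 13.60, 13.63 and 13.57 in the Stab2KO arrays, against 13.57, 13.48 and 13.51 in the WT arrays. Its whole range over 12 arrays was 0.19 log2, the narrowest of the 10 members. Its differences from WT were 0.05 in DKO (95% interval -0.09 to 0.20), 0.11 in Stab1KO (-0.04 to 0.25) and 0.08 in Stab2KO (-0.06 to 0.22), and none passed the limma test. Bgn stood above 99.9% of all genes on every array, close to the highest value of any gene on any array, 13.87 log2, so a rise had little room to show, and whether its probes were saturated was not tested. Aspn, which encodes asporin, a collagen-binding member without a glycosaminoglycan chain, was below the array median in all 12 arrays. It lay between 3.51 and 3.73 in DKO, 3.35 and 3.45 in Stab1KO, 3.45 and 3.72 in Stab2KO and 3.34 and 3.42 in WT, and its difference of 0.26 in DKO did not pass (adjusted p = 0.19).

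Of the other class II genes, Prelp encodes prolargin, which binds collagen and the heparan sulfate of basement membranes. Prelp measured 11.64, 11.72 and 11.36 log2 in the DKO arrays, 11.86, 11.71 and 11.81 in the Stab1KO arrays and 11.95, 11.96 and 12.08 in the Stab2KO arrays, against 11.99, 11.83 and 11.80 in the WT arrays. Its lowest value was in DKO replicate 3, the array with high neutrophil genes. Prelp did not differ from WT past the threshold in any knockout, with differences of -0.30 in DKO (95% interval -0.52 to -0.08, adjusted p = 0.17), -0.08 in Stab1KO and 0.12 in Stab2KO. Between DKO and Stab2KO the difference was -0.42 ± 0.10 (limma adjusted p = 0.0496, 1.34-fold lower). That call held in 1 of 12 fits that left out 1 array, and it was -0.31 (adjusted p = 0.086) without DKO replicate 3. Ecm2 and Prelp were the 2 members called there, both lower in DKO, where 2.12% of all genes were called lower and 3.42% in either direction.

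Fmod encodes fibromodulin, which regulates collagen fibril assembly and cross-linking. Fmod lay between 6.84 and 7.67 log2 in DKO, 6.30 and 6.80 in Stab1KO, 6.41 and 6.96 in Stab2KO and 6.33 and 6.89 in WT. Its highest array was DKO replicate 1, and the difference of DKO from WT was 0.60 ± 0.24 (95% interval 0.08 to 1.13, adjusted p = 0.24). Omd, the gene of osteomodulin or osteoadherin, a keratan sulfate proteoglycan of bone, was below the array median in all 12 arrays. It lay between 3.23 and 3.47 in all of them, and its differences from WT were 0.01 in DKO, 0.04 in Stab1KO and 0.11 in Stab2KO.

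Ogn encodes osteoglycin, also called mimecan, a class III member with a role in collagen fibril assembly. Ogn lay between 5.74 and 6.34 log2 in DKO, 4.74 and 5.88 in Stab1KO, 5.36 and 5.67 in Stab2KO and 5.43 and 5.73 in WT. The 3 DKO arrays were above the WT arrays, but the difference of 0.38 ± 0.25 did not pass (adjusted p = 0.50). Podn encodes podocan, a class V member known from kidney podocytes and vascular smooth muscle. Podn lay between 6.41 and 6.53 in DKO, 5.80 and 6.80 in Stab1KO, 6.11 and 6.45 in Stab2KO and 6.59 and 6.85 in WT. Its differences from WT were -0.25 in DKO, -0.43 in Stab1KO and -0.49 in Stab2KO, and none passed the limma test (adjusted p = 0.59, 1.00 and 0.60). Stab1KO replicate 3 was the lowest of the 12 arrays for Fmod, Ogn, Podn and Lum.

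Counted over the remaining comparisons, Ecm2 was the 1 member called between Stab1KO and Stab2KO, where 0.05% of all genes were called lower and 0.108% in either direction. By limma 0 members were called in DKO against Stab1KO, where 0.945% of all genes were called. There 4 members had an unadjusted p under 0.05, but the share of all genes at that threshold was not taken, so the count carries no comparison. The exact permutation test over arrays cannot go below 0.1 with 3 arrays against 3, and it gave 0.1 for Dcn and Lum in each comparison with WT and for Ecm2 in Stab2KO.

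The genes whose profiles over the 12 arrays came nearest to those of Dcn and Lum were other genes that fell in every knockout. Likeness was taken as the mean absolute difference between 2 genes after each was centred on its own mean over the 12 arrays. For Dcn these were Gdf2, the gene of the growth factor BMP9 (0.12 log2), the chemokine gene Cxcl12 (0.13) and Hhip, which encodes a hedgehog-binding protein (0.18). For Lum they were Hhip (0.17), the growth factor gene Bmp10 (0.19) and Postn, which encodes the matrix protein periostin (0.20). Between Dcn and Lum themselves it was 0.25. Cxcl12 differed from WT by -2.52 in DKO, -2.42 in Stab1KO and -1.70 in Stab2KO, and Bmp10 by -2.63, -2.52 and -1.85 in the same order. For Ecm2 the nearest were Cuedc2 (0.09), Fbxo36 (0.10) and Trim63 (0.10), and their differences of 0.46, 0.34 and 0.37 in Stab2KO against WT did not pass the test. These likenesses were the smallest over all 24011 genes and carry no test.

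**Figure D3:**
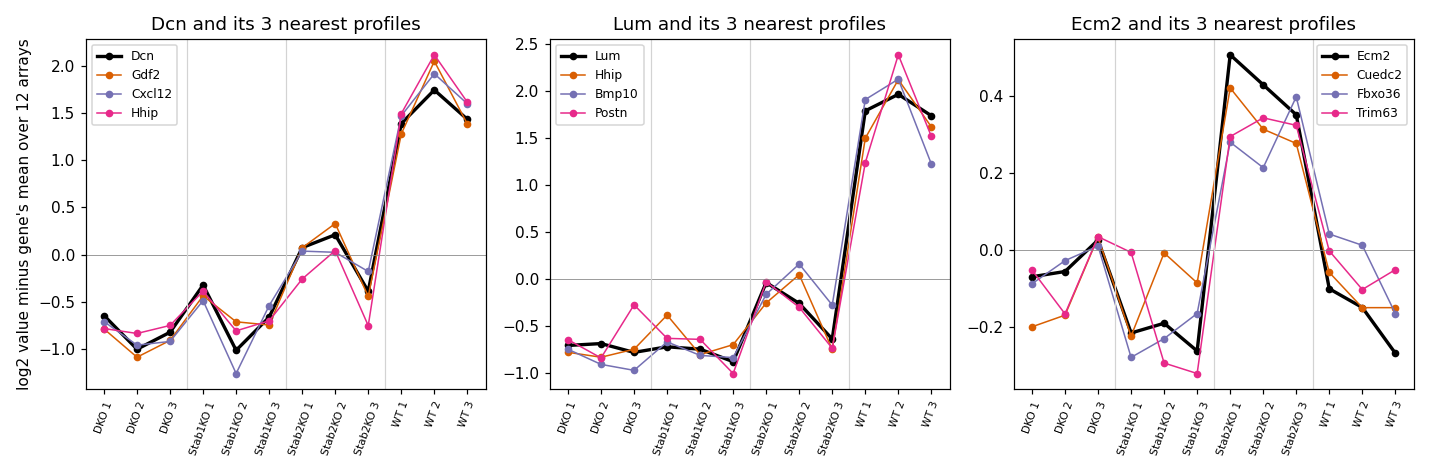
Log2 values of Dcn, Lum and Ecm2 (black) and of the 3 genes with the nearest profile to each, centred on each gene's mean over 12 arrays (vertical axis), in the 12 arrays (horizontal axis). Lines join the arrays only to guide the eye. For Dcn and Lum the WT arrays stand above the 9 knockout arrays in every profile shown, and for Ecm2 the Stab2KO arrays stand highest.

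Dcn and Lum are direct neighbours on chromosome 10, which also carries Stab2, with 73 measured genes between Stab2 and Dcn, while Stab1 lies on chromosome 14. The nearest genes around the pair were low in WT itself, with means of 3.34 log2 for Mir3966, 3.53 for 4930556N09Rik, 3.31 for 4930473O22Rik and 4.14 for Kera, which encodes the corneal proteoglycan keratocan, where the lowest value on any array was 2.94. None of them was called against WT in any knockout, but a fall of the size seen for Dcn or Lum could not have been measured at these levels. Prelp and Fmod are likewise neighbours, on chromosome 1. Next to them, Btg2, an antiproliferative gene, differed from WT by 0.93 in DKO without passing (adjusted p = 0.057), and Optc, another family member, by -0.01. Of the 7 measured family members outside the 10 (Kera, Epyc, Chad, Chadl, Nyx, Optc and Podnl1), 0 were called against WT in any knockout and 0 had an unadjusted p under 0.05 (limma).

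**Figure D4:**
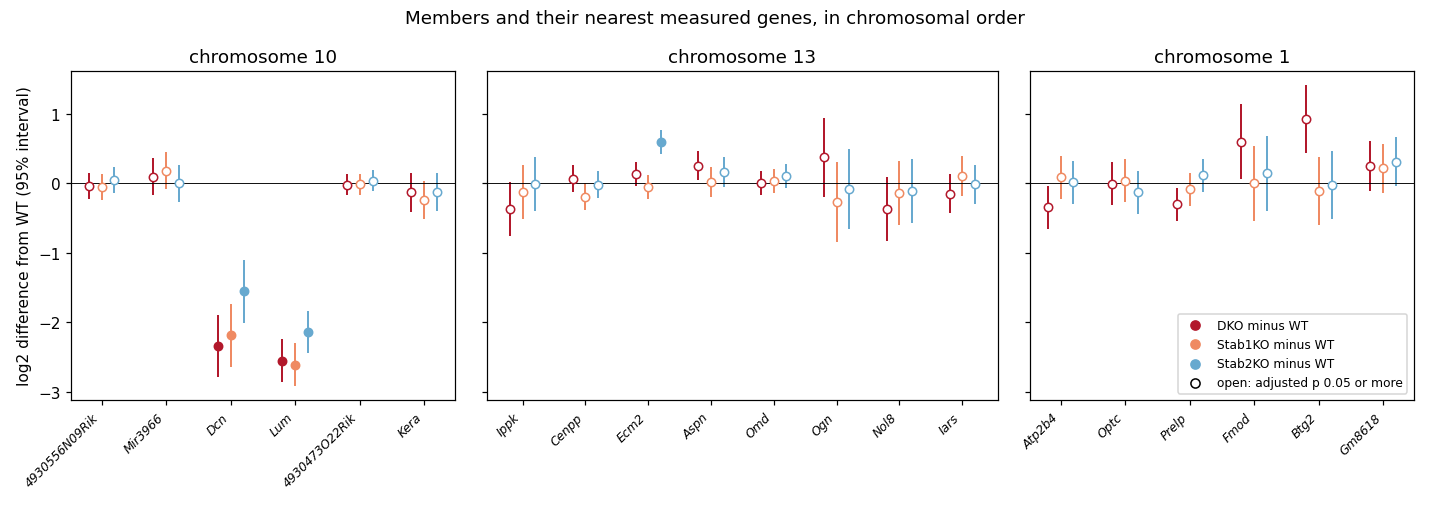
Log2 difference from WT with the 95% interval (vertical axis) for members and the nearest measured genes on chromosomes 10, 13 and 1, in chromosomal order (horizontal axis, not to scale). Filled points passed an adjusted p of 0.05. On chromosome 10 Dcn and Lum lie between -2.61 and -1.56, while their neighbours, with WT means of 3.31 to 4.14 log2, had no room for such a fall, and on chromosome 13 only Ecm2 in Stab2KO is filled.

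Genes of other cell types were set beside these values, since stellate cells and fibroblasts are known sources of decorin and lumican. Of 16 measured stellate genes, a list without any member, 11 fell in DKO, 10 in Stab1KO and 9 in Stab2KO, and 0 rose. Their median log2 differences were -1.36, -1.65 and -1.23, and without DKO replicate 3 the DKO count was 10. The mean of the list lay between 6.18 and 6.45 log2 in DKO, 6.28 and 6.46 in Stab1KO and 6.66 and 6.80 in Stab2KO, against 7.66 and 8.25 in WT. WT replicate 2 was the highest array for the list as for Dcn and Lum, and for the list and both genes Stab2KO had the mean nearest to WT. The lowest arrays differed, being DKO replicate 2 for the list, Stab1KO replicate 2 for Dcn and Stab1KO replicate 3 for Lum. Lrat, the gene of a retinol-esterifying enzyme, differed by -3.68 in DKO, -3.01 in Stab1KO and -2.05 in Stab2KO. In bulk RNA, fewer cells of a type and less RNA per cell cannot be told apart. The part of stellate RNA in the falls of Dcn and Lum was not tested.

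The other lists of matrix-producing cells had no gene called lower. Of 10 portal fibroblast genes 0 were lower in any knockout, and 1 was higher in DKO, Dpt (0.65 ± 0.12, limma adjusted p = 0.029), the gene of dermatopontin, a matrix protein that binds decorin. That call was lost without DKO replicate 3 (0.58, adjusted p = 0.062). The mean of that list lay between 5.27 and 5.68 log2 in DKO, 5.11 and 5.26 in Stab1KO, 5.15 and 5.23 in Stab2KO and 5.11 and 5.17 in WT. Of 7 mesothelial and 6 smooth muscle genes 0 were called against WT in any knockout. In DKO 6 of the 7 and all 6 lay above 0, with 2 in each list at an unadjusted p under 0.05. In Stab1KO 6 mesothelial and 2 smooth muscle genes lay above 0, and in Stab2KO 6 and 5. The mean of the 12 LSEC genes lay between 12.75 and 13.04 in all arrays, and 0 were called (limma), with 5, 0 and 0 at an unadjusted p under 0.05 in DKO, Stab1KO and Stab2KO.

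Some lists of other cell types moved as well. In DKO against WT 181 of all 24011 genes were called higher, and 249 without DKO replicate 3. Of 6 cholangiocyte genes, which mark bile duct cells, 4 rose in DKO, with a median of 1.25 and all 6 above 0, and without DKO replicate 3 the count was 1 and the median 1.07. Their mean lay between 6.80 and 7.45 log2 in DKO, against 5.65 and 6.195 in WT. Of 11 genes of large vessel endothelium 3 were called higher in DKO, 2 of them also without DKO replicate 3. In Stab2KO 1 was called higher, Gja5, which encodes a connexin of arterial endothelium (0.78 ± 0.12, limma adjusted p = 0.023). In Stab1KO 0 were called, while 10 of the 11 lay above 0 and 4 had an unadjusted p under 0.05. All 10 Kupffer cell genes, which mark the macrophages of the sinusoid, lay below 0 in Stab2KO, the comparison in which Ecm2 rose, with a median of -1.25. By limma 0 of them were called and 8 had an unadjusted p under 0.05, and their mean lay between 7.14 and 7.56 in Stab2KO, against 7.47 and 9.64 in WT. The part of these cells in the values of the members was not tested.

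**Figure D5:**
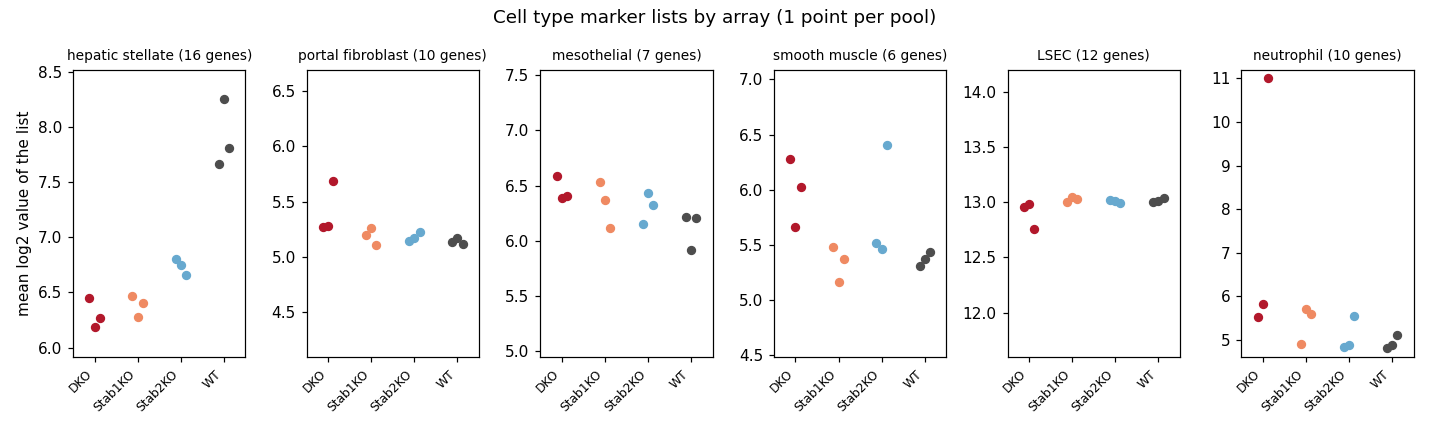
Mean log2 value of 6 marker lists (vertical axes) in the 4 genotypes (horizontal axes), with 1 point per pool. The stellate list is highest in the 3 WT arrays, the LSEC list stays between 12.75 and 13.04, and the neutrophil list stands at 11 in DKO replicate 3.

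Among genes that act with the family, some collagens and matrix genes fell, and most enzymes that build the sugar chains were not called. Of 11 genes of collagens that the family binds or that lie on the same fibrils, 4 fell in DKO, 2 in Stab1KO and 2 in Stab2KO, and 0 rose. Col14a1, which encodes a fibril-associated collagen that binds decorin, averaged 7.11 ± 0.25 log2 in DKO, 6.87 ± 0.19 in Stab1KO and 7.38 ± 0.17 in Stab2KO, against 8.29 ± 0.23 in WT (SD, n = 3 each). It fell by 1.19 ± 0.16 in DKO (limma adjusted p = 0.0053), by 1.43 ± 0.16 in Stab1KO (adjusted p = 0.0026) and by 0.92 ± 0.16 in Stab2KO (adjusted p = 0.046). Col6a1, a chain of the beaded-filament collagen that decorin binds, fell with differences of -0.74, -0.76 and -0.71 in the same order. Col1a2 (-0.74) and Col6a2 (-0.54) fell in DKO. Of these calls, that of Col14a1 in Stab1KO held under all 19 alternatives and that in DKO under 18, while each of the others was lost when one of several single arrays was left out. Without DKO replicate 3, Col1a2 was not called in DKO (-0.75, adjusted p = 0.071) and Col6a3 was called higher (1.07, adjusted p = 0.028).

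Of 11 measured other matrix partners Postn was the 1 called in each knockout, with differences of -2.30 in DKO, -2.47 in Stab1KO and -2.07 in Stab2KO. Without DKO replicate 3, Tgfbi was also called lower in DKO (-1.65, limma adjusted p = 0.0018). Over all arrays its difference was -0.94 (adjusted p = 0.34). Of 16 genes of matrix processing, Mmp2, the gene of a matrix metalloproteinase, fell in all 3 knockouts, with differences of -0.82 in DKO, -1.16 in Stab1KO and -0.77 in Stab2KO, and Lox, which encodes the collagen cross-linking enzyme lysyl oxidase, rose by 0.73 ± 0.11 in DKO (limma adjusted p = 0.0078). The Stab2KO calls of Postn, without Stab2KO replicate 2 (adjusted p = 0.062), and of Mmp2, without any of 8 single arrays, were lost. Of 23 growth factor and receptor genes reported to meet the family, 0 were called in Stab1KO or Stab2KO. At an unadjusted p under 0.05 there were 16 in DKO, 4 in Stab1KO and 4 in Stab2KO. In DKO Tgfb2 (1.00 ± 0.19) and Erbb4 (0.73 ± 0.13) rose, and Ccn4 (-0.60 ± 0.11) and P2rx4 (-0.54 ± 0.10) fell, with adjusted p-values between 0.024 and 0.032. Each of these 4 calls was lost without 1 of several arrays, that of Erbb4 also without DKO replicate 3 (0.68, adjusted p = 0.051). Leaving out that array brought a further call, Bmp4, higher in DKO (1.82, limma adjusted p = 0.044). Over all arrays Bmp4 differed by 1.60 (adjusted p = 0.054).

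Of 22 genes that build chondroitin and dermatan sulfate chains, B4galt7, which encodes a galactosyltransferase of the linker to the core protein, was the 1 called, in DKO (-0.41 ± 0.08, limma adjusted p = 0.024). That call was lost without any of 5 single arrays, DKO replicate 3 among them (-0.37, adjusted p = 0.053). In Stab1KO and Stab2KO 0 of the 22 were called, with 1 and 4 at an unadjusted p under 0.05, beside 9 in DKO. Of 7 genes of keratan sulfate synthesis 0 were called against WT in any knockout, with 2, 1 and 2 at an unadjusted p under 0.05 in DKO, Stab1KO and Stab2KO. Chst5, which encodes a sulfotransferase of keratan sulfate, differed by -0.26 in DKO, -0.27 in Stab1KO and -0.32 in Stab2KO, with adjusted p-values of 0.071, 0.32 and 0.096.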

How the data were processed

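The authors deposited 1 table of log2 expression values with 24973 rows and 12 arrays, which per the submitters' processing notes were made with RMA (background correction, quantile normalization and probe summary). For the RMA version and genome build: not given in the sources used here. Rows were paired with symbols through the platform annotation: 24015 had 1 symbol, 0 had several and 958 are unnamed here. Of rows sharing a symbol the one with the highest mean was kept, which left out 4 and gave 24011 genes. limma 3.58.1 in R 4.3.3 fitted 1 model with 4 group means over the 12 arrays, with moderated two-sided tests and Benjamini-Hochberg adjustment over all genes within each of 7 contrasts. A call is an adjusted p under 0.05, and intervals are limma's 95%. Counts at an unadjusted p under 0.05 are given without the share of all genes at that threshold. Differences are the first group minus the second. The labels say that each array is a separate pool, and the number of pools limits the precision.

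The members, gene lists and tests were chosen with earlier results of these data known. Named genes were the 10 members, the targets, the 2 nearest measured genes on each side of a member, the 3 nearest profiles of a member called against WT, and up to 4 called genes of each pathway list. Marker genes of cell types, Dpt, Col6a3, Tgfbi and Bmp4 were named after their values were seen. Gene order came from RefSeq (GRCm38.p6) by gene identifier. The replicate numbers of the labels were not treated as pairs. Deviations from the group means correlated above 0.1 in 4 of 18 same-numbered pairs (median 0.06, range -0.06 to 0.29). They did so in 5 of 36 different-numbered pairs (median -0.04, range -0.27 to 0.21). A shared batch of same-numbered arrays is not excluded by this, and a replicate block was fitted as an alternative. The model was tested on simulated arrays with independent noise, without an outlying array or a shared batch, so this gives no support to the calls. Alternatives were a replicate block, trend and robust moderation, array weights, a filter at the 40th percentile of gene means, further quantile normalization, every row tested, the 6 compared arrays alone, and each array left out.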

Additional observations from a re-analysis of the deposited data

Results flagged for a closer look

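Lum was singled out because it was the 1 member with a called departure from additivity. Its departure from additivity was 2.2 ± 0.19 log2 (limma adjusted p = 0.0016), with a log2 difference of -0.41 for DKO against Stab2KO and of -2.61 for Stab1KO against WT. The Lum values in DKO and Stab1KO stood near the low end of the arrays. Added losses would put Lum in DKO below 2.94 log2, the lowest value of any gene on any array. A departure above 0 was therefore fixed in advance, and the call does not show that the effect of Stab1 loss differed between backgrounds. The departure stayed called under all 18 alternatives, between 2.04 and 2.34, which cannot lift this limit.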

How the results depend on the processing

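The falls of Dcn and Lum in all 3 knockouts stayed called under all 19 alternatives, with Dcn between -2.43 and -2.23 log2 in DKO, -2.36 and -2.01 in Stab1KO and -1.68 and -1.38 in Stab2KO, and Lum between -2.60 and -2.49, -2.66 and -2.54, and -2.28 and -1.98 in the same order. The rise of Ecm2 in Stab2KO held under 18 of 19. The count of members called in DKO against Stab2KO was 2 of 10. It was 1 with the replicate block, with further quantile normalization or with every row tested. Array weights gave 4, the 6 compared arrays alone gave 0, and leaving out single arrays gave 0 to 3. Dcn joined the 2 with trend and robust moderation (limma adjusted p = 0.048) or with the filter on low signal (adjusted p = 0.044). Between Stab1KO and Stab2KO the count was 0 rather than 1 with the 6 compared arrays alone. Of 11 called member results 4 lost the call under some alternative, all of them of Ecm2 or Prelp, and none changed sign. The replicate block changed no other member call than that of Prelp (adjusted p = 0.068). Over all genes the counts called moved by more than 1.5 times under some alternatives: 46 to 81 in Stab1KO against WT (74 as reported), 29 to 148 in Stab2KO (71), 97 to 1111 in DKO (432), 18 to 466 in DKO against Stab1KO (227), 4 to 1789 in DKO against Stab2KO (822), 12 to 43 between Stab1KO and Stab2KO (26) and 3 to 199 for the departure from additivity (12). The lowest counts came with the 6 compared arrays alone in 4 of the 7 comparisons, which leaves fewer samples by construction, and the cause of the other shifts was not tested. Aspn, Omd and Lum in the knockouts lay below the array median, where background limits what a log2 difference can show.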
